A study of Mus musculus with 8 samples.

Results

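The 4 libraries described here were prepared from nuclei of mice aged 21 months, 2 from the caudate putamen and 2 from the hippocampus, and were taken as the libraries whose titles give that age. They are 4 of the 8 libraries of the series, and the other 4 come from the same regions at 3 months. The mice were of the strain C57BL/6JN with no transgene or treatment named, and every library joined nuclei of 1 male and 1 female in equal number. Punches came from the left hemisphere, and those of the hippocampus from its anterior part. All barcodes with 500 or more detected genes were used, 48810 of the 108519 that passed in the series: 14567 and 18689 in the caudate putamen libraries and 8999 and 6555 in the hippocampus libraries. Counts of unique molecular identifiers (UMIs) were summed over the barcodes of each library, which gave 141574271 and 156069790 UMIs for caudate putamen 1 and 2 and 91043080 and 67159015 for hippocampus 1 and 2.

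The caudate putamen is the dorsal striatum of the mouse. Most of its neurons are medium spiny neurons, which release GABA, receive dopamine from the midbrain and glutamate from the cortex and thalamus, and fall into a direct pathway type with D1 receptors, substance P and dynorphin and an indirect pathway type with D2 receptors, adenosine receptors and enkephalin. The hippocampus is a part of the cortex built around glutamatergic granule cells of the dentate gyrus and pyramidal cells of the CA fields. The striatum arises from the subpallium of the embryo and the hippocampus from the pallium, and each keeps transcription factors of its origin in adult neurons.

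The libraries were alike in quality. The median nucleus held 7314 to 8365 UMIs, mitochondrial genes took 0.0022% to 0.0076% of UMIs, the 10 most abundant genes took 12% to 14.5%, and any pair of libraries shared 23 to 85 barcodes. All 25 genes of a medium spiny neuron list were higher in the caudate putamen libraries. In a list of hippocampal excitatory neuron genes 20 of 25 were higher in the hippocampus libraries. These lists were chosen with earlier results of these data known, so the counts describe the libraries and do not test their labels. The choroid plexus gene Ttr stood at 71.7 and 0.0705 CPM (counts scaled to the library total) in caudate putamen 1 and 2 and at 0 and 51.3 CPM in hippocampus 1 and 2, so 1 library of each region carried it. Endothelial genes were high in hippocampus 1 alone: Flt1 had 68.7 CPM there, against 13 in hippocampus 2 and 15.2 and 7.09 in the caudate putamen.

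The first comparison asked which genes differ between the regions in the sums over all nuclei. Caudate putamen exceeded hippocampus for 4342 genes and fell below it for 4149 of the 21970 genes tested, which is 38.6% of genes called in either direction (19.8% higher in caudate putamen, 18.9% higher in hippocampus). A call here is an adjusted p under 0.05 in edgeR's quasi-likelihood test with Benjamini-Hochberg adjustment over all genes tested, and a log2 difference is caudate putamen minus hippocampus. Of the called genes, 2059 (9.37% of those tested) were at least 2-fold higher in caudate putamen and 2359 (10.7%) at least 2-fold higher in hippocampus. At least 8-fold differences were reached by 477 and 469 genes. In such sums, fewer nuclei of a type and less RNA per nucleus cannot be told apart. The labels do not say whether the libraries of a region come from separate animals beyond the pooling, so p-values measure only the spread between these libraries. When libraries were scaled by their totals alone, the median gene moved to -0.13 on the log2 scale and the calls split differently: 40.2% of 8695 were higher in caudate putamen, against 51.1% of 8491 with the trimmed mean of M-values (TMM) scaling used here. Without hippocampus 1 there were 5184 calls without caudate putamen 2 there were 5572, and with each nucleus thinned to 1000 UMIs there were 4257.

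**Figure D1:**
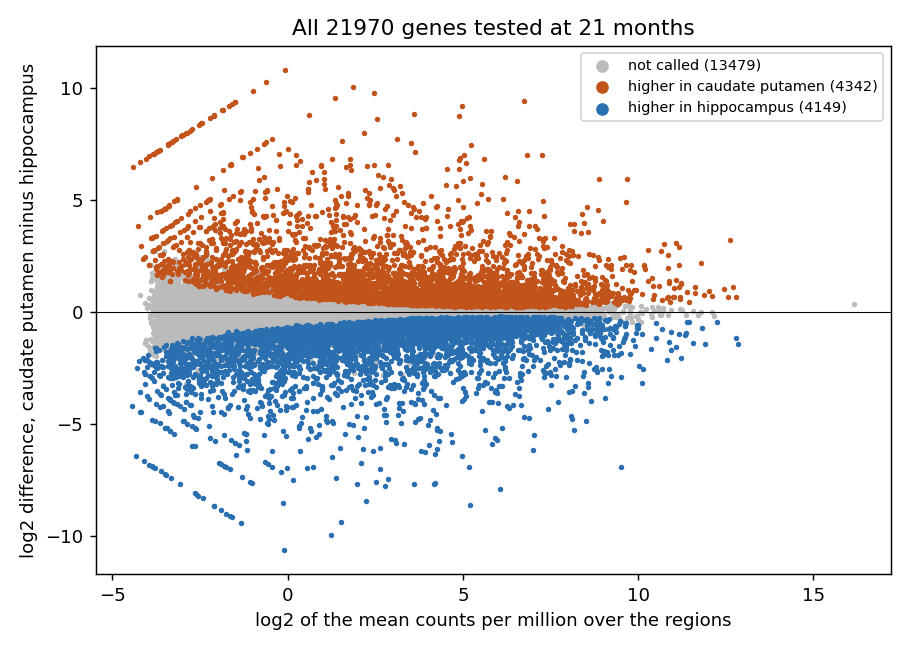
Each point is a gene tested, with the log2 of its mean CPM over the regions on the x axis and the log2 difference, caudate putamen minus hippocampus, on the y axis. Orange marks the 4342 genes called higher in caudate putamen, blue the 4149 called higher in hippocampus and grey the genes not called, and called genes are found at low and at high levels.

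Among genes with at least 20 CPM in the higher region and a name that is not a predicted one, those furthest towards the caudate putamen were led by Sh3rf2, a ring finger protein with SH3 domains. It had 191 and 234 CPM in caudate putamen 1 and 2 and 0.297 and 0.387 CPM in hippocampus 1 and 2. The log2 difference was 9.43 (standard error, SE, 0.23, adjusted p = 4.46e-05, edgeR). Both caudate putamen libraries lay far above both hippocampus libraries for this gene.

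Mhrt (chr14:54968678-54974349 in GRCm38, annotated as antisense RNA) had 60.9 and 64.9 CPM in the caudate putamen and 0.0659 and 0.179 in the hippocampus. It overlaps the heart myosin gene Myh7 on the other strand, which had 9.0 and 8.91 against 0.176 and 0.283 CPM. The sources used here do not state whether strand was used in counting, and whether reads of the 2 genes were kept apart was not tested. Six3, a homeobox factor of the striatal lineage (chr17:85613608-85629302), had 21.4 and 24.0 CPM against 0.0989 and 0.179 CPM.

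Receptors and peptides of medium spiny neurons followed. Drd2, the D2 dopamine receptor, had 205 and 243 CPM in the caudate putamen and 1.91 and 1.88 CPM in the hippocampus (log2 difference 7.01, SE 0.16). Adora2a, an adenosine receptor, stood at 62.5 and 72.3 against 0.923 and 0.506 CPM. These mark the indirect pathway, as does Penk, the precursor of enkephalin, at 145 and 146 against 2.30 and 2.53 CPM. Tac1, the precursor of substance P and a mark of the direct pathway, had 53.4 and 67.6 against 0.330 and 0.834 CPM. Further genes in this group were the retinoid receptors Rxrg and Rarb, the AMPA receptor partner Syndig1l and the sodium channel beta subunit Scn4b, with log2 differences of 6.85, 5.95, 6.77 and 5.96.

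By the same rule, the genes furthest towards the hippocampus were led by Smoc2, a secreted calcium-binding matrix protein (chr17:14279506-14404790). It had 0.339 and 0.647 CPM in the caudate putamen and 130 and 135 CPM in the hippocampus, a log2 difference of -7.93 (SE 0.30, adjusted p = 9.69e-05, edgeR). Ntf3, which encodes the growth factor neurotrophin-3 (chr6:126101412-126166910), had 0.155 and 0.173 against 35.6 and 37.4 CPM. Tafa1, a secreted peptide of the brain (chr6:96113154-96657198), had 12.5 and 9.31 against 1285 and 1606 CPM. The rule that named these genes requires that the regions do not overlap.

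Lct, the lactase gene, and Arsj, a sulfatase, had log2 differences of -7.68 and -6.94. Nrn1, a protein that promotes neurite growth, Itga8, an integrin, Slc26a4, an anion exchanger, and Slc30a3, which loads zinc into synaptic vesicles, had -6.43, -6.16, -5.94 and -6.22. The transcription factors Onecut1 and Neurod2 had -6.35 and -6.27. Neurod2, a factor of pallial excitatory neurons, had 0.162 and 0.532 CPM in the caudate putamen against 29.7 and 29.9 CPM in the hippocampus.

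**Figure D2:**
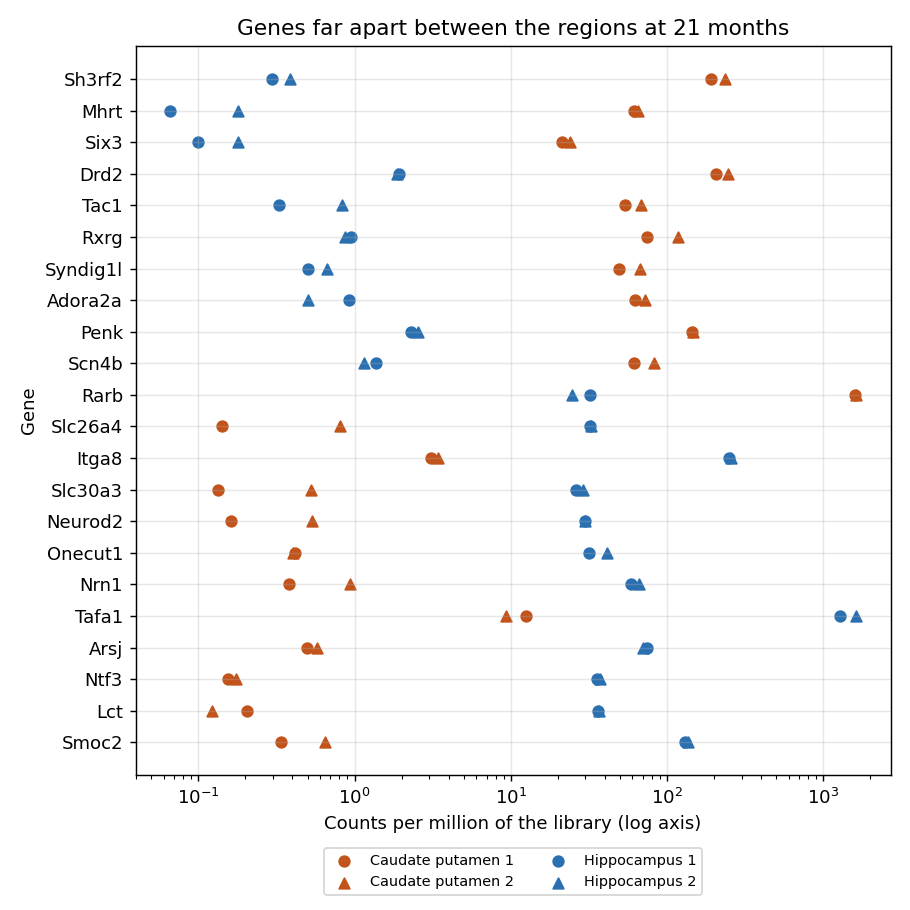
CPM of the library on a log axis for 22 genes far apart in either direction, with circles and triangles for libraries 1 and 2 of the caudate putamen (orange) and the hippocampus (blue). For Sh3rf2 the caudate putamen libraries sit at 191 and 234 CPM and the hippocampus libraries at 0.297 and 0.387 CPM. The genes were chosen to have no overlap between the regions.

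Genes called in either direction had a longer median span than the rest. Genes were not matched for their level, and the part of level in this was not tested. The median gene span was 25446.5 bases for genes higher in caudate putamen, 31423 for genes higher in hippocampus and 16907 for genes not called, against 20251 over all genes tested, in the GENCODE vM21 annotation.

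The transcription factors of the 2 embryonic territories separated the regions in both directions. Counts in this and the later gene lists stand beside the shares over all genes tested. Those were 19.8% higher in caudate putamen and 18.9% higher in hippocampus, 38.6% in all. In the list of subpallial factors 20 of 24 tested genes were higher in caudate putamen and 3 higher in hippocampus, with a median log2 difference of 2.58 beside -0.01 over all genes tested. Meis2, a homeobox cofactor, had 1511 and 1589 CPM in the caudate putamen and 63.1 and 49.4 CPM in the hippocampus. Foxp1 and Foxp2, forkhead factors of striatal neurons, had log2 differences of 2.70 and 3.94, and Dlx5 and Dlx6, factors of GABA neurons, 4.01 and 4.76. Isl1, a LIM homeobox factor of direct pathway neurons, was counted 3297 times in the caudate putamen libraries and 2 times in the hippocampus libraries, a ratio of CPM of 876 with an exact 95% counting interval of 242 to 7238, which covers counting error only. Lhx8, a factor of cholinergic neurons, was counted 699 and 3 times, a ratio of 124 (interval 42.2 to 602). Sp8 and Zic1, zinc finger factors, were higher in hippocampus, with log2 differences of -2.87 and -1.92, and Sp8 was lost without caudate putamen 1, caudate putamen 2 or hippocampus 2 (adjusted p 0.0602 to 0.0706).

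In the list of pallial factors 17 of 23 tested genes were higher in hippocampus and 1, Cux1, was higher in caudate putamen (median -1.80). Neurod1, Neurod2 and Neurod6, basic helix-loop-helix factors of excitatory neurons, had log2 differences of -7.42, -6.27 and -5.71, and Bhlhe22 had -6.77. Prox1, which marks dentate granule cells, had 28.3 and 19.6 CPM in the caudate putamen and 168 and 178 CPM in the hippocampus. Zbtb20, a factor of the hippocampal field, had 1107 and 957 against 3422 and 3156 CPM, so it was present in both regions and differed by -1.55 on the log2 scale.

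Slc17a7, the vesicular glutamate transporter of cortical and hippocampal neurons, had 0.615 and 3.85 CPM in caudate putamen 1 and 2 and 88.4 and 104 CPM in the hippocampus libraries. The caudate putamen libraries were well apart from each other for this gene, and for Neurod6 (0.0565 and 0.500 CPM), with the higher value in caudate putamen 2. The gate of hippocampal excitatory neurons described below held 6 and 31 nuclei in these libraries. A list of thalamic genes had 8 of 10 members higher in hippocampus and 1, Six3, higher in caudate putamen (7.52). Its member Slc17a6, a glutamate transporter of the thalamus, had 0.0636 and 0.0449 CPM against 12.6 and 10.4 CPM. The part that tissue at the border of the punches has in these values was not tested.

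Genes that carry dopamine signals were higher in caudate putamen for 15 of 20 tested and higher in hippocampus for 1 (median 2.55). Drd1, the D1 receptor, had 48.4 and 60.9 CPM in the caudate putamen and 1.18 and 1.27 CPM in the hippocampus, and Drd3 had 22.4 and 9.62 against 0.450 and 0.342 CPM. Drd5, the D5 receptor, ran the other way with 0.0494 and 0.0833 against 0.835 and 0.923 CPM, a log2 difference of -3.57. Downstream of the receptors, Gnal, the G protein alpha subunit of striatal neurons, had a log2 difference of 2.52, its gamma subunit partner Gng7 had 2.51, and Ppp1r1b, which encodes the phosphatase inhibitor DARPP-32, had 5.00. Rgs9, which speeds the end of the G protein signal, had 846 and 1021 CPM against 16.6 and 16.8 CPM, and Gnb5, the beta subunit that binds it, had a log2 difference of 2.28. The transporters and enzymes of dopamine neurons gave little signal: Slc6a3 was too low to test in all 4 libraries, and Th was counted 179 times in the caudate putamen and 3 times in the hippocampus, a ratio of 31.7 (exact 95% interval 10.7 to 155).

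The enzymes that make and destroy cyclic AMP were divided between the regions by isoform. Among adenylyl cyclases 2 of 9 were higher in caudate putamen and 6 higher in hippocampus (median -1.47). Adcy5 had 655 and 789 CPM in the caudate putamen and 30.6 and 31.1 CPM in the hippocampus. Adcy1, a cyclase stimulated by calcium, had 19.9 and 24.3 against 173 and 177 CPM, and Adcy2 and Adcy8 had log2 differences of -2.85 and -2.56. Among phosphodiesterases 11 of 19 were higher in caudate putamen and 6 in hippocampus: Pde10a had 3561 and 4511 against 590 and 611 CPM, Pde1b, Pde1c, Pde2a and Pde7b had log2 differences of 3.14, 3.94, 2.67 and 2.75, and Pde4d and Pde1a had -1.81 and -1.61. RGS proteins, which end G protein signals, were higher in caudate putamen for 9 of 17 tested and in hippocampus for 3. The hippocampus count was near the 18.9% of all genes tested that were higher there.

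Genes of GABA synthesis and transport were called in all 8 cases, 6 higher in caudate putamen and 2 in hippocampus. Gad2, a glutamate decarboxylase, had 176 and 169 CPM in the caudate putamen and 20.7 and 21.1 CPM in the hippocampus, and Slc32a1, the vesicular GABA transporter, had 26.1 and 30.4 against 2.00 and 2.64 CPM. The 2 members higher in hippocampus were the GABA transporters of glial and vascular cells, Slc6a11 (17.8 and 9.18 against 72.0 and 35.3 CPM) and Slc6a13 (0.713 and 0.404 against 11.4 and 4.56 CPM), and Slc6a11 was lost without hippocampus 1 or caudate putamen 2 (adjusted p = 0.0829 and 0.0675). GABA-A receptor subunits were higher in caudate putamen for 4 (2 without hippocampus 1 or 2) and in hippocampus for 6 of 14 tested. Gabra5, a subunit of extrasynaptic receptors in the hippocampus, had a log2 difference of -2.07, while Gabrg3 and Gabrd had 2.10 and 1.77.

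Glutamate receptors were also split by subunit. NMDA receptor subunits were higher in hippocampus for 4 of 7 and in caudate putamen for 1. Grin2a had 798 and 929 CPM in the caudate putamen and 2980.3 and 3166 CPM in the hippocampus, while Grin1, the subunit that all these receptors share, was not called (355 and 378 against 323 and 350 CPM). In the list of AMPA, kainate and delta receptors with their partners 9 of 19 were higher in caudate putamen and 7 in hippocampus. Gria1 had a log2 difference of -0.90 and Gria4 of 1.24. The partner proteins Cnih3 and Cacng4 had -3.42 and 2.96. Among metabotropic receptors Grm2, which damps release from mossy fibres, had 0.170 and 0.167 against 12.8 and 11.7 CPM, and Grm4, which is found on striatal outputs, had 77.9 and 90.4 against 10.7 and 9.92 CPM.

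Receptors for other transmitters and neuropeptides were called in both directions. Of 13 serotonin receptors 6 were higher in caudate putamen, among them Htr1d, Htr1b and Htr2c with log2 differences of 6.51, 4.22 and 3.28, and 4 were higher in hippocampus, among them Htr4 (53.1 and 29.2 against 270 and 269 CPM) and Htr1a. Oprk1, the kappa opioid receptor, had 17.2 and 19.0 CPM in the caudate putamen against 0.505 and 0.268 CPM, Cnr1, the main cannabinoid receptor of the brain, had 119 and 196 against 14.3 and 20 CPM, and Oprm1, the mu opioid receptor, had 37.7 and 42.9 against 71.3 and 85.3 CPM. Of 20 neuropeptide and secreted factor genes 7 were higher in caudate putamen and 6 in hippocampus. Bdnf, the brain-derived neurotrophic factor, had 0.756 and 0.910 CPM in the caudate putamen and 48.7 and 53.2 CPM in the hippocampus, a log2 difference of -5.81 (SE 0.15). Cck, the cholecystokinin gene, had 0.735 and 1.62 against 11.3 and 15.3 CPM, and Sst, the somatostatin gene, had 10.5 and 11.9 against 0.780 and 1.70 CPM.

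Markers of interneurons were higher in caudate putamen for 10 of 20 tested and in hippocampus for 4. The second count was near the 18.9% of all genes tested that were higher in hippocampus. Chat, the enzyme that makes acetylcholine in striatal cholinergic interneurons, had 7.99 and 15.4 CPM in the caudate putamen and 0.0439 and 0.0149 CPM in the hippocampus. Reln, a secreted matrix protein, had 509 and 539 against 52.8 and 41.7 CPM. Adarb2, known from interneurons of the caudal ganglionic eminence, had 240 and 166 against 1880.1 and 2131 CPM. It is 1 of the 8 interneuron markers of the gates described below. Together these took 0.206% and 0.222% of UMIs in the excitatory neuron gate of hippocampus 1 and 2, and 1.61% and 1.38% in the interneuron gate. The Adarb2 sum is therefore not read as a measure of interneurons, whose shares overlapped between the regions.

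Potassium channels divided almost evenly. Of 45 potassium channel genes 17 were higher in caudate putamen and 20 in hippocampus. Kcnj6 and Kcnj3, subunits of G protein-gated channels, had 9.83 and 17.2 against 558 and 579 CPM and 51.9 and 44.7 against 662 and 645 CPM. Towards the caudate putamen stood Kcnh4, with 50.9 and 64.7 against 3.75 and 3.83 CPM, and Kcnq5, an M-current channel, with 3223 and 2839 against 331 and 480 CPM. Sodium and calcium channel genes were higher in caudate putamen for 13 of 28 and in hippocampus for 5, and with library totals alone for 12 and 9. The count of 5 was near the 18.9% of all genes tested that were higher in hippocampus.

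Guidance molecules, which direct axons in development and stay on in adult synapses, were called in both directions. Over all genes tested 18.9% were higher in hippocampus and 19.8% in caudate putamen. Eph receptors and ephrins were higher in hippocampus for 10 of 22 and in caudate putamen for 5, the latter near the share over all genes. Ephb2, Epha3 and Epha7 had log2 differences of -2.68, -2.42 and -1.94, and the ligand Efnb2 had 2.94. Semaphorins, plexins and neuropilins were higher in hippocampus for 12 of 29 and in caudate putamen for 7. The caudate putamen count was again near the share over all genes. Sema5a had 17.4 and 18.1 CPM in the caudate putamen and 526 and 554 CPM in the hippocampus, the receptors Nrp1 and Nrp2 had log2 differences of -2.84 and -3.60, and Sema3a ran the other way with 107 and 99.9 against 10.7 and 7.53 CPM. Slit1, a repellent ligand, had 4.23 and 6.1 against 256 and 260 CPM.

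Retinoic acid is made from vitamin A by aldehyde dehydrogenases and acts through nuclear receptors of the RAR and RXR families. Of 16 tested genes of this pathway 7 were higher in caudate putamen and 5 in hippocampus. Rarb had 1601 and 1620.5 CPM in the caudate putamen and 32.0 and 24.7 CPM in the hippocampus, and Rxrg had 74.5 and 116 against 0.945 and 0.864 CPM. With thinned nuclei 3 were higher in each region, beside 4257 calls among the 17065 genes tested in that setting. The enzymes Aldh1a1 and Aldh1a2 had 14.8 and 12.5 against 83.5 and 40.7 CPM and 0.0636 and 0.0833 against 7.77 and 3.26 CPM. The retinol transporter gene Stra6 had 1.02 and 0.833 against 39.0 and 41.1 CPM. The enzyme Aldh1a3 was not called, at 0.657 and 0.769 against 0.648 and 0.670 CPM.

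**Figure D3:**
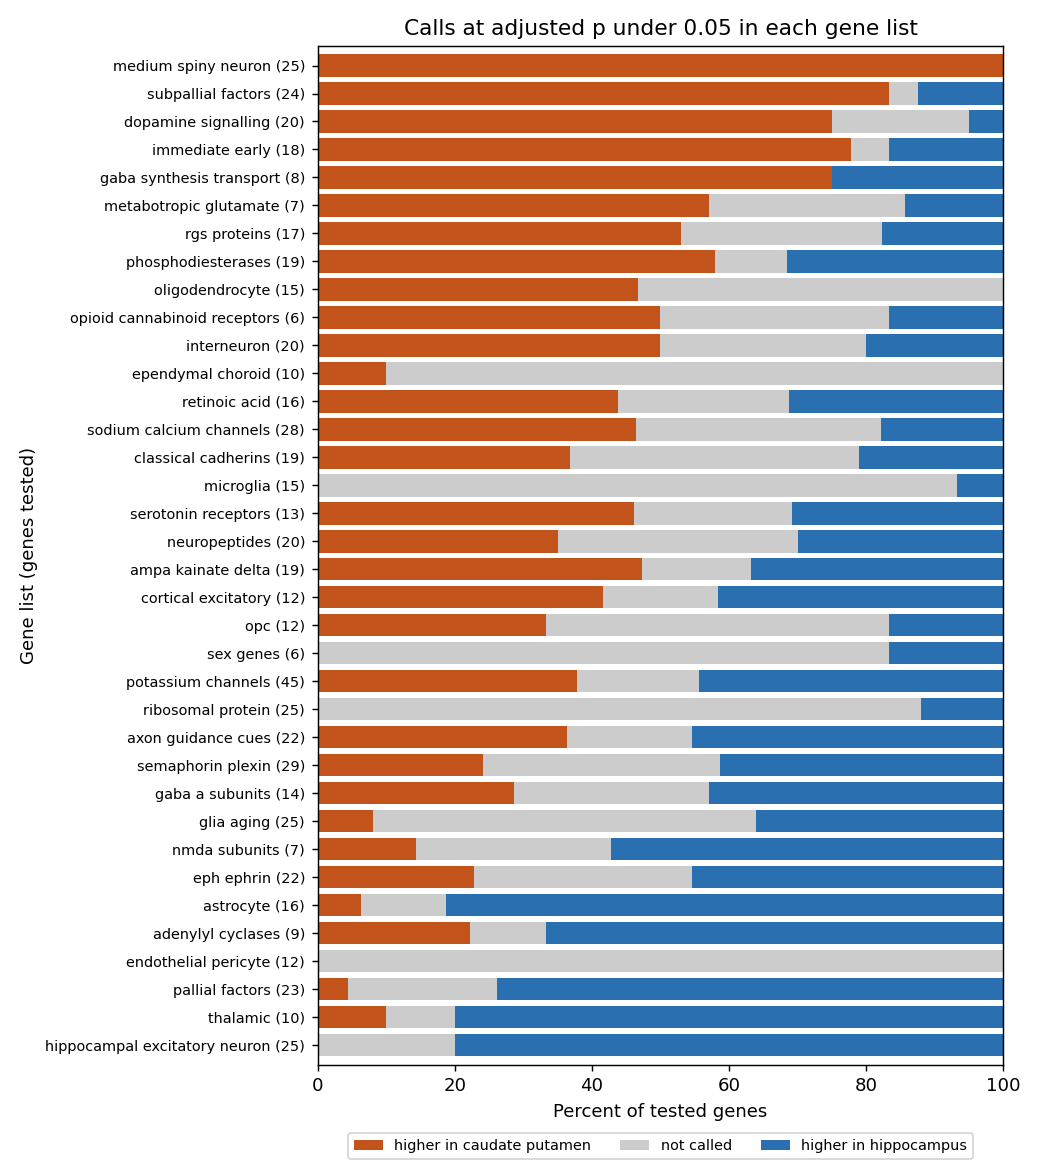
For each gene list with at least 6 genes tested (number in brackets), the bar gives the percent of tested genes called higher in caudate putamen (orange), not called (grey) and called higher in hippocampus (blue), with lists ordered by their median log2 difference. The medium spiny neuron list is at the top with 25 of 25 higher in caudate putamen and the hippocampal excitatory list at the bottom with 20 of 25 higher in hippocampus.

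Immediate early genes, which neurons switch on within minutes of activity, were mostly higher in the caudate putamen. Of 18 tested, 14 were higher there, 3 were higher in hippocampus and 1 was not called (median 2.02). Npas4, a neuron-specific factor induced by calcium, had 19.5 and 23.2 CPM in the caudate putamen and 1.66 and 1.77 CPM in the hippocampus, a log2 difference of 3.76 (SE 0.16, adjusted p = 0.000115, edgeR). Egr1 had 52.0 and 85.4 against 5.88 and 6.15 CPM, Junb had 40.5 and 62.5 against 5.91 and 7.59 CPM, and Arc, whose protein acts in the removal of AMPA receptors, had 20.4 and 26.8 against 2.91 and 3.05 CPM. For all 4 of these genes caudate putamen 2 was the highest library. Fos had 4.56 and 4.68 against 1.52 and 0.864 CPM, and Nr4a1, a nuclear receptor, 28.8 and 32.8 against 12.1 and 13 CPM. The members higher in hippocampus were Nr4a2 (0.473 and 0.903 against 9.12 and 9.23 CPM), Jun (7.40 and 7.27 against 24.9 and 29.8 CPM) and Ier2, whose call was lost without hippocampus 1, caudate putamen 1 or caudate putamen 2 (adjusted p 0.0596 to 0.0691).

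Many promoters of such genes hold the letters TGACG, the core of the site bound by CREB and related factors. In the RefSeq promoter table for GRCm38.p6, searched over the 250 bases before the start and on both strands, 17.8% of all promoters hold TGACG, and 14 of the 18 immediate early genes are listed. A match was found in 11 of those 14: in 9 of the 11 listed that were higher in caudate putamen and 1 of the 2 listed that were higher in hippocampus. The 3 promoters below are examples picked by hand from genes higher in the caudate putamen, and other promoters with matches, that of Npas4 among them, are not printed. Matches are in capitals (on the other strand they read CGTCA, and adjoining matches run together).
Nr4a1 (chr15:101266596-101266845, plus strand): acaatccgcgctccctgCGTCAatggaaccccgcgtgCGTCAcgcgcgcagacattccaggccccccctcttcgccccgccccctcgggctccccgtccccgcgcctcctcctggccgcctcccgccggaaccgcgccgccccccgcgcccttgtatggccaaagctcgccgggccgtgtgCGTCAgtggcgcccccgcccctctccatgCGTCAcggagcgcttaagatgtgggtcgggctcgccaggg
Dusp1 (chr17:26508473-26508722, minus strand): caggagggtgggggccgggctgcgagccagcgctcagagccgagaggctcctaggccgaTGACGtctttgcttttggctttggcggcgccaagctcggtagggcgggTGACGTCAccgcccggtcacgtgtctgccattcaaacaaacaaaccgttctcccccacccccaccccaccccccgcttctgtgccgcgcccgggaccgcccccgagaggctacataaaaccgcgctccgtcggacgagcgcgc
Fos (chr12:85473640-85473889, plus strand): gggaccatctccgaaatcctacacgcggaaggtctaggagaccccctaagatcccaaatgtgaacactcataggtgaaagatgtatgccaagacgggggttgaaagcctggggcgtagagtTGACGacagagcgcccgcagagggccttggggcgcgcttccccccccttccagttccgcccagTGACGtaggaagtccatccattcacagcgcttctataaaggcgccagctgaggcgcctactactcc
A match is a description of the letters. Over all tested genes with a listed promoter the share with a match was 26.6% among those higher in caudate putamen and 23.1% among those higher in hippocampus, against 26.1% in all.

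The makeup of the libraries was described with marker gates. A nucleus entered a gate if at least 4 of the 8 markers of a class had a UMI and no other class came within 1 marker of it, and gated nuclei are called by the class whose markers they carry. Medium spiny neuron-like nuclei made up 36.0% and 44.2% of caudate putamen 1 and 2 and 0.022% and 0.076% of hippocampus 1 and 2 (2 and 5 nuclei). Hippocampal excitatory neuron-like nuclei made up 23.1% and 32.3% of the hippocampus libraries and 0.041% and 0.166% of the caudate putamen libraries. Astrocyte-like nuclei were a larger share of the hippocampus libraries (23.7% and 13.7%) than of the caudate putamen libraries (8.55% and 5.50%), and oligodendrocyte-like nuclei a larger share of the caudate putamen libraries (26.3% and 20.7% against 16.0% and 18.2%). OPC-like nuclei (of oligodendrocyte precursors) made up 0.886% and 0.995% of the caudate putamen libraries and 1.0% and 1.85% of the hippocampus libraries. These 5 did not overlap between the regions, but the OPC-like shares did with at least 5 markers (0.995% in caudate putamen 2 and 0.989% in hippocampus 1) and with thinned nuclei. With 2 libraries against 2 the exact two-sided permutation test cannot give a p below 0.333, which is the value of all 5. With nuclei thinned to 1000 UMIs the difference for medium spiny neuron-like nuclei was 13.6 percentage points in place of 40.0, and that for hippocampal excitatory neuron-like nuclei was -0.27 in place of -27.6. Fewer nuclei entered a gate at that depth. No gate took 57.2% and 61.4% of thinned nuclei in caudate putamen 1 and 2 and 64.0% and 69.4% in hippocampus 1 and 2. The excitatory neuron gate then held 21 and 20 nuclei in the hippocampus and 0 and 0 in the caudate putamen. The medium spiny neuron gate held 1612 and 2973 in the caudate putamen and 0 and 0 in the hippocampus. Shares of interneuron-like nuclei (1.62% and 1.17% against 1.28% and 1.59%) and microglia-like nuclei (3.08% and 2.26% against 2.20% and 3.25%) overlapped. No gate took 22.8% and 24.8% of the caudate putamen nuclei and 30.5% and 28.5% of the hippocampus nuclei.

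**Figure D4:**
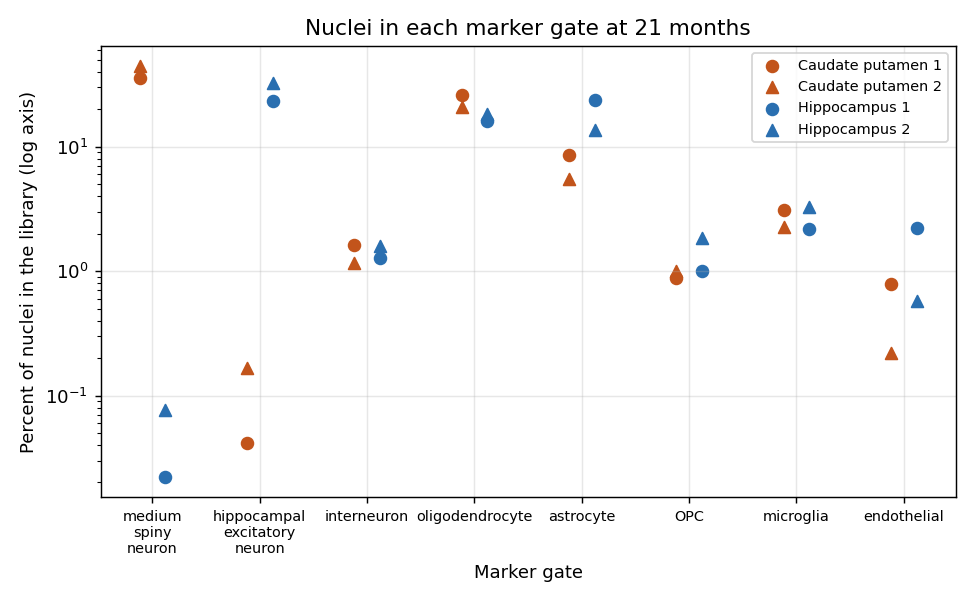
Percent of the nuclei of each library that entered each marker gate, on a log axis, with circles and triangles for libraries 1 and 2 of the caudate putamen (orange) and hippocampus (blue). Medium spiny neuron-like nuclei reach 36.0% and 44.2% in the caudate putamen and less than 0.1% in the hippocampus, and hippocampal excitatory neuron-like nuclei show the reverse.

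The lists of glial markers were then read in the sums. In the astrocyte list 13 of 16 genes were higher in hippocampus and 1, Slc4a4, was higher in caudate putamen (median -1.11). Without hippocampus 1 there were 3 called higher in hippocampus and without caudate putamen 2 there were 4, and Slc4a4 was lost without caudate putamen 2 or hippocampus 2 (adjusted p = 0.0764 and 0.0885, edgeR). Gfap, the filament protein of reactive and fibrous astrocytes, had 6.15 and 3.12 CPM in the caudate putamen and 39.9 and 17.7 CPM in the hippocampus, and Aqp4, a water channel of astrocyte endfeet, had 10.2 and 6.84 against 59.3 and 23.5 CPM. In the oligodendrocyte list 7 of 15 were higher in caudate putamen and none in hippocampus, with differences below 2-fold: Mbp, the myelin basic protein, had 376 and 330 against 263 and 285 CPM. The share of this list called, 46.7%, was near the 38.6% of all genes tested, of which 19.8% were higher in caudate putamen. Without hippocampus 1 there were 2 called, without caudate putamen 2 there were 12 and with thinned nuclei 4, and Mbp was lost without hippocampus 1 (adjusted p = 0.0846, edgeR). In the OPC list 4 of 12 were higher in caudate putamen and 2 in hippocampus, and without hippocampus 1 the first count fell. The share of the OPC list called was 50%, beside 38.6% of all genes tested. In the microglia list 1 of 15 was called, Tgfbr1, a receptor for transforming growth factor beta, with 39.0 and 29.7 against 66.9 and 66.9 CPM, a call that was lost with nuclei thinned to 1000 UMIs (log2 difference -0.50, adjusted p = 0.0726, edgeR). No gene of 12 in the endothelial and pericyte list was called by edgeR, and 0 had an unadjusted p under 0.05. DESeq2 called 1 of them, and edgeR with the replicate number as a block called 7, all higher in hippocampus. Under that block 9621 of all 21970 genes tested were called, 4739 of them higher in caudate putamen.

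Glia were then compared within their own gates, which held 1245 and 1027 astrocyte-like nuclei in the caudate putamen and 2131 and 897 in the hippocampus. For oligodendrocytes these numbers were 3829 and 3869 against 1438 and 1192, for oligodendrocyte precursors (OPC) 129 and 186 against 90 and 121, and for microglia 449 and 422 against 198 and 213. The median nucleus of these last gates held fewer UMIs in both caudate putamen libraries. Medians were 3152 and 2678 against 3493.5 and 3254 for oligodendrocytes and 5883 and 4938 against 7605 and 7082 for OPC. For microglia they were 2684 and 2284.5 against 2923 and 2748, while astrocyte medians overlapped. The gates were not refitted with thinned nuclei. In every glial gate the caudate putamen libraries also carried RNA of medium spiny neurons. The 8 markers of those neurons took 0.082% to 0.378% of the UMIs of a glial gate in the caudate putamen and 0.0123% to 0.0535% in the hippocampus, against 0.828% and 0.927% in the medium spiny neuron gate itself. The 8 hippocampal excitatory markers took 0.0247% to 0.0607% of the UMIs of a glial gate in the hippocampus and 0.0078% to 0.0317% in the caudate putamen. In the oligodendrocyte gate they took 0.0597% and 0.0587% in the hippocampus against 0.0317% and 0.0312% in the caudate putamen. In the microglia gate they took 0.0607% and 0.0534% against 0.0161% and 0.0266%. Their share in the excitatory neuron gate of the hippocampus was 0.196% and 0.187%. The part of such neuronal RNA in the genes called higher in hippocampus within glial gates was not tested.

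Some neuronal RNAs had as high a CPM in glial gates of the caudate putamen as in its neurons. CPM is a share of the UMIs of the gate and not a count per nucleus. The median nucleus held 3152 and 2678 UMIs in the oligodendrocyte gate and 12649 and 9609.5 in the medium spiny neuron gate. Tac1 had 65.8 and 94.1 CPM in the oligodendrocyte gate of the caudate putamen and 45.3 and 59.4 CPM in the medium spiny neuron gate. Penk had 173 and 177 CPM in the microglia gate and 183 and 173 CPM in the neurons. Egr1 had 38.7 and 74.2 CPM in the oligodendrocyte gate and 53.3 and 86.1 CPM in the neurons. Npas4 was lower there, with 7.96 and 13.4 CPM against 22.1 and 25.6 CPM in the neurons, as was Nr4a1, with 14.2 and 14.7 against 31.0 and 34.8 CPM. Other neuronal genes were lower outside the neurons: Rarb had 463 and 504 CPM in the oligodendrocyte gate against 2033 and 1945 CPM in the medium spiny neuron gate. Droplets without a nucleus were not analysed here. A neuronal gene called in a glial gate is therefore not read as expressed by the glia. In the region where they were higher, the genes named below had at least 2 times the CPM in the gate that they had in the sum of all nuclei. The rule used only that region and does not remove RNA from other nuclei. Sst passed it in the microglia gate at 2.52 times and Six3os1 in the OPC gate at 2.02 times.

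**Figure D5:**
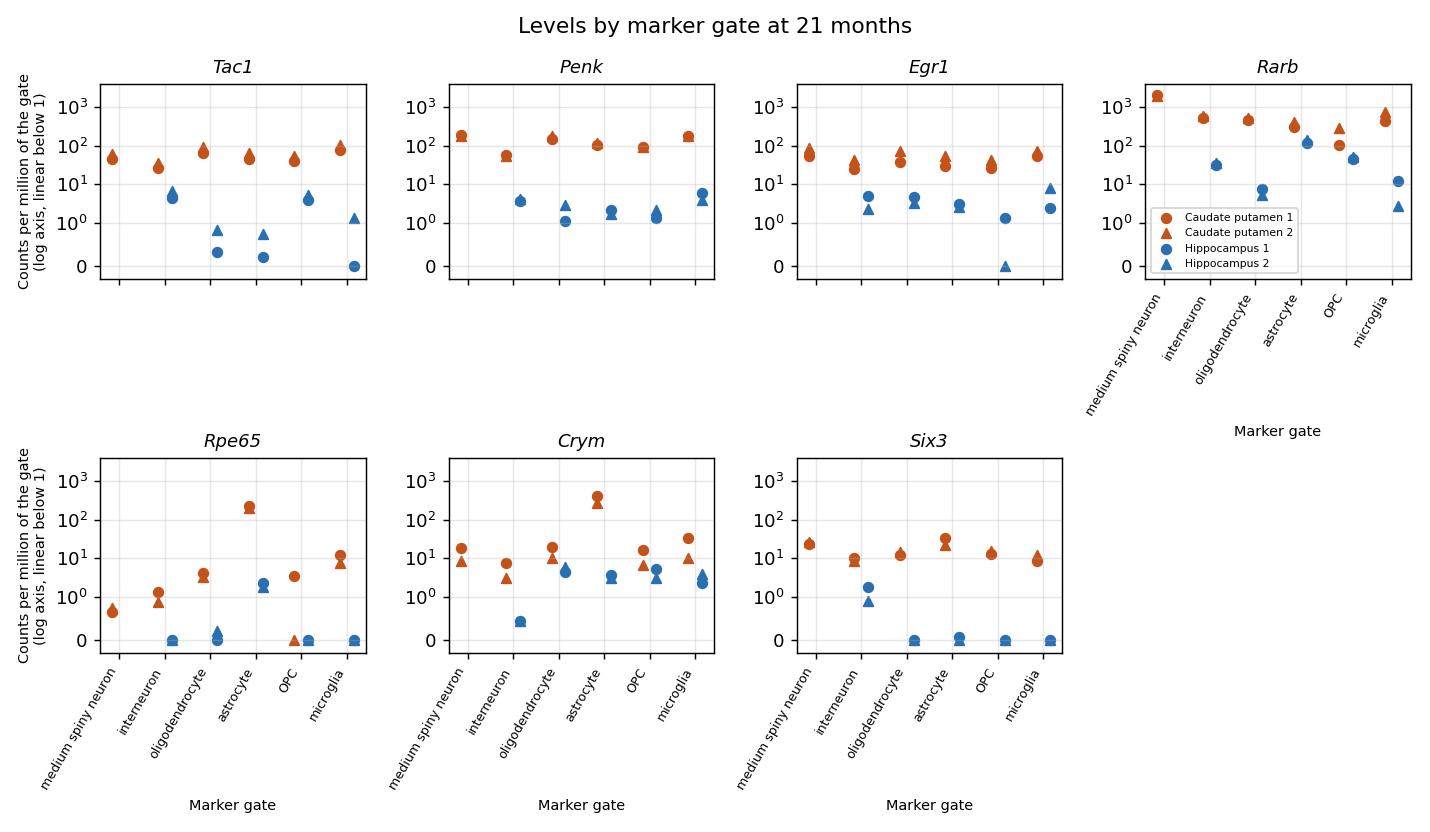
CPM of 7 genes by marker gate, on an axis that is logarithmic above 1 and linear below it, with circles and triangles for libraries 1 and 2 of the caudate putamen (orange) and hippocampus (blue). In the caudate putamen Tac1 and Penk lie at similar levels in the medium spiny neuron, oligodendrocyte and microglia gates, while Rpe65 and Crym stand highest in the astrocyte gate.

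In the astrocyte gate 2488 of 15155 genes were called, 16.4%, with 1213 higher in caudate putamen (8.0%) and 1275 in hippocampus (8.41%). Of these, 350 and 394 were enriched in the gate by that rule. There were 1001 calls without hippocampus 1 and 1450 without hippocampus 2. Crym, which encodes the thyroid hormone-binding protein mu-crystallin (chr7:120186380-120202111), had 408 and 268 CPM in the caudate putamen and 3.66 and 3.17 CPM in the hippocampus (log2 difference 6.58, SE 0.30, adjusted p = 0.000134, edgeR). In the other caudate putamen gates described here Crym did not pass 34.6 CPM. Rpe65, an isomerase known from the visual cycle (chr3:159599175-159625321), had 234 and 207 against 2.29 and 1.86 CPM (log2 difference 6.66).

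Six3os1, a long noncoding RNA beside Six3, had 101 and 54.1 CPM in the astrocyte gate of the caudate putamen and 0.573 and 0 CPM in that of the hippocampus. It overlaps Six3 on the other strand, and whether strand kept the reads of the 2 apart was not tested. Scel, a protein known from skin, Lhcgr, a receptor for luteinizing hormone, and Ano5, an anoctamin, completed the genes higher in caudate putamen, with log2 differences of 3.96, 3.34 and 2.81. In the sums Ano5 was higher in hippocampus (-1.03).

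Towards the hippocampus the astrocyte gate was led by Pax3, a paired box factor (chr1:78101267-78197134). It was counted 487 times in hippocampus and 1 time in caudate putamen, a CPM ratio of 301 (exact 95% counting interval 53.7 to 11893), at 29.9 and 13 CPM in hippocampus 1 and 2. Myoc, the gene of the secreted protein myocilin, had 1.71 and 0.407 against 69.8 and 33.9 CPM. Pax3 and Myoc were not called without caudate putamen 1 (adjusted p = 0.113 and 0.188) or without caudate putamen 2 (0.159 and 0.249). Hopx, a homeodomain-only protein, had 4.28 and 3.26 against 60.8 and 62.4 CPM, and Ano1, Vegfc and Pax6os1 had log2 differences of -5.41, -4.38 and -4.19. Pax6os1 is annotated as antisense to Pax6, and the same limit on strand applies.

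The astrocyte gate also differed for genes of known astrocyte function. Gfap had 75.9 and 49.7 CPM in the caudate putamen and 212 and 185 CPM in the hippocampus, a log2 difference of -1.66 (SE 0.20), and Aqp4 had 136 and 121 against 319 and 247 CPM. Gja1, the gap junction gene, had 184 and 149 against 291 and 316 CPM, and Aldh1a1 had 194 and 218 against 473 and 446 CPM. Dkk3, a secreted protein of the Wnt pathway, ran the other way with 216 and 208 against 75.6 and 78.8 CPM (in the sums it was higher in hippocampus, -1.41), as did Grm3, a metabotropic glutamate receptor of astrocytes, with 2253 and 2313 against 1315 and 1494 CPM, a call lost without hippocampus 1 (adjusted p = 0.0638). In the sums Gfap, Aqp4 and Gja1 had log2 differences of -2.53, -2.16 and -1.81, and the calls of Aqp4 and Gja1 there were lost without caudate putamen 2 (adjusted p = 0.0729) and without hippocampus 1 (0.0539).

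In the oligodendrocyte gate 2095 of 15517 genes were called, 13.5%, with 1361 higher in caudate putamen (8.77%) and 734 in hippocampus (4.73%). By that rule 14 and 96 of them were enriched in the gate, and 1345 calls were left without hippocampus 1. The named genes had log2 differences between -1.34 and 0.64. Pcdh15, a protocadherin, had 227 and 225 CPM in the caudate putamen and 408 and 380 CPM in the hippocampus (log2 difference -0.79, SE 0.08). Slc7a15, an amino acid transporter family member, had 43.4 and 31.9 against 95.4 and 85.7 CPM, and Adam18, of the ADAM family, had 7.71 and 9.23 against 24.6 and 18.1 CPM. Kit, a receptor tyrosine kinase, had -0.83. Kit, Pcdh15 and Dnm3os ran the other way in the sums, where they were higher in caudate putamen (0.53, 0.62 and 0.52), though Kit was not called in the sums without hippocampus 1 or caudate putamen 2 (adjusted p = 0.0801 and 0.0785). Tspan9, a tetraspanin, led the other direction among genes with calls in all refits, with 116 and 100 against 73.1 and 69.9 CPM. Chchd2, Carns1, Rab37, Clca4a and Dnm3os were each lost without at least 1 library, at adjusted p up to 0.221 (edgeR).

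In the OPC gate 215 of 9099 genes were called, 2.36%, with 106 higher in caudate putamen (1.16%) and 109 in hippocampus (1.20%), of which 9 and 15 were enriched. Without caudate putamen 1 there were 429 calls, and DESeq2 gave 79. Six3os1 and Pax3 separated the regions here too. Six3os1 had 24.9 and 22.6 CPM in the caudate putamen and no count in the hippocampus, at least 13.4-fold higher against a floor of 3 counts per region. Pax3 had 27.5 and 17.0 CPM in the hippocampus and no count in the caudate putamen, at least 13.5-fold higher, and its call was lost without hippocampus 1 (adjusted p = 0.0639). Adam18 had 27.3 and 24.5 against 83.9 and 79.9 CPM and Rhoj, a small GTPase, 64.1 and 50 against 149 and 113 CPM. The remaining named genes, Fndc1, Gpr149 and Adamtsl3 towards hippocampus and Edf1, Col18a1, Tnc, Grk3 and Lrmda towards caudate putamen, were each lost without at least 1 library and in the DESeq2 test. In the sums Fndc1 and Gpr149 were higher in caudate putamen (0.91 and 3.12), and Tnc, Grk3 and Lrmda were higher in hippocampus (-2.26, -1.18 and -0.46).

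In the microglia gate 569 of 10827 genes were called, 5.26%, with 358 higher in caudate putamen (3.31%) and 211 in hippocampus (1.95%), of which 6 and 28 were enriched. There were 299 calls without hippocampus 1, 376 without hippocampus 2 and 1186 without caudate putamen 1. Among the genes named towards hippocampus, Mrc1 and F13a1 are known from macrophages at the borders of the brain. Mrc1, the mannose receptor, had 31.9 and 16.0 CPM in the caudate putamen and 328 and 200 CPM in the hippocampus. F13a1, a clotting factor subunit made by macrophages, had 33.9 and 14.6 against 402 and 234 CPM. Cd209g, a lectin receptor, was counted 1 and 46 times, a CPM ratio of 84.8 (exact 95% counting interval 14.5 to 3420), and Cmah, an enzyme of sialic acid, 3 and 33 times (ratio 20.3, interval 6.36 to 103). Mndal and Ifi203, with -3.56 and -3.11, belong to a family of near-identical neighbours whose reads may be shared, and Ifi203 was lost without hippocampus 1 (adjusted p = 0.206).

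These RNAs sat in few nuclei. A UMI of at least 2 of 8 macrophage markers (Mrc1, F13a1, Cd163, Lyve1, Ms4a7, Pf4, Stab1 and Cbr2), a set chosen after Mrc1 and F13a1 were seen, was found in 19 and 13 microglia-gated nuclei of hippocampus 1 and 2 (9.60% and 6.1% of the gate) and in 15 and 9 of caudate putamen 1 and 2 (3.34% and 2.13%). Without those nuclei the counts of F13a1 fell from 340 and 176 to 0 and 0 in the hippocampus, as that choice brings about. Cd209g and Cmah, which were no part of the choice, fell from 24 and 22 counts to 0 and 0 and from 22 and 11 to 0 and 0. No gene named towards hippocampus was left to test. Towards caudate putamen Sst had 29.9 and 26.4 against 2.37 and 2.66 CPM, close to its 19.1 and 23.7 CPM in the oligodendrocyte gate of the caudate putamen. Chchd10 and Ccdc85b were lost without hippocampus 1 (adjusted p = 0.0970 and 0.212).

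A list of genes known to rise in aged glia was also examined. In the sums 9 of 25 tested were higher in hippocampus and 2, Lpl and C4a, in caudate putamen (without hippocampus 1, and also without caudate putamen 2, there were 2 higher in hippocampus), so that 44% of the list was called, near the 38.6% of all genes tested. C4b, a complement gene, had 18.3 and 14.4 CPM in the caudate putamen and 20.8 and 12.8 CPM in the hippocampus and was not called. C4a and C4b are near-identical copies, so the split of reads between them is uncertain. Serpina3n, a protease inhibitor of reactive astrocytes, had 0.466 and 0.449 against 1.76 and 1.49 CPM in the sums, and 1.57 and 0.814 against 4.09 and 2.98 CPM in the astrocyte gate. With nuclei thinned to 1000 UMIs its call in the sums was lost (log2 difference -0.87 in place of -1.71, adjusted p = 0.154, edgeR). B2m and H2-D1, of antigen presentation, had log2 differences of -1.09 and -1.27 in the sums, and the calls of both were lost without hippocampus 1 (adjusted p = 0.179 and 0.199) or caudate putamen 2 (0.136 and 0.130). C4a was lost without hippocampus 1, hippocampus 2 or caudate putamen 2 (adjusted p 0.0588 to 0.0732), and Serpina3n in the astrocyte gate without the same libraries (0.0752 to 0.371).

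The last comparison asked whether the regions stood apart at 21 months as they did at 3 months. Of the libraries compared, 1 at 3 months was made with Cell Ranger 7.0.0 and the other 7 with 6.1.2. The part of that version in the differences between ages was not tested. Of 22831 genes tested in all 8 libraries, 2 (0.00876%) had a regional difference that differed between the ages at an adjusted p under 0.05 (edgeR), and 1546 had an unadjusted p under 0.05. Atxn2l, a protein of RNA granules (chr7:126491708-126503437), had 25.9 and 23.1 CPM in the old caudate putamen and 40.4 and 39.6 CPM in the old hippocampus, against 57.2 and 51.3 CPM and 39.0 and 39.0 CPM at 3 months. The difference between the ages was -1.21 (SE 0.09, adjusted p = 0.0495). Snrpf, a core protein of the spliceosome (chr10:93583029-93589706), had 4.51 and 4.20 against 10.2 and 9.84 CPM at 21 months and 16.4 and 14.6 against 10.2 and 8.32 CPM at 3 months, a difference of -1.97 (SE 0.16, adjusted p = 0.0495). Both calls were lost when any 1 of the 8 libraries was left out, with adjusted p from 0.0924 to 0.449 for Atxn2l and from 0.0976 to 0.437 for Snrpf. Of the 8459 genes called at 21 months and tested at 3 months, 8377 had the same sign of difference in the young libraries, 6757 were called in the same direction there and 7 in the opposite direction. In the young libraries alone 8570 genes were called. These counts cover genes chosen by their call at 21 months, and the share with the same sign over all genes tested was not counted. Across the 21822 genes tested at both ages the log2 differences had a Pearson r of 0.937, given as a description, since genes are not replicates.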

How the data were processed

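Single-nucleus libraries (10x Genomics 3' chemistry, v3.1) came from Hoechst-sorted nuclei. The deposited matrices hold raw UMI counts per gene and barcode, made with Cell Ranger 6.1.2 in 7 libraries and 7.0.0 in 1 (at 3 months) per the file headers, while the submitters' processing notes name Cell Ranger 4.0.0 and mm10. The annotation, and whether introns or strand were used in counting, are not given in the sources used here. Gene identifiers matched GENCODE vM21 (GRCm38) for 32235 of 32285.

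Of 49441 barcodes in the 4 libraries, 631 with under 500 genes were left out. No doublet caller was run, and leaving out the 5% of barcodes with most genes is an alternative. Counts were summed per library and, for glia, per gate, and tested in edgeR 4.0.16 (R 4.3.3; TMM, filterByExpr, robust quasi-likelihood, no block), with DESeq2 1.42.0 as an alternative. SE came from the F statistic. CPM are counts scaled to the sum, without TMM. The edgeR fit was tested on simulated counts for the sums, region by age, and the astrocyte and OPC gates.

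The members, gene lists and gates were chosen with earlier results of these data known. Named genes were the 12 largest called differences in each direction with at least 20 CPM in the higher region, no overlap between libraries and no predicted name. In gates they were up to 6 each way with the enrichment given above, and for each list up to 4 with the largest differences, with further members where a list is described. The labels number the libraries 1 and 2 but do not pair them across regions. Alternatives covered scaling, filters, thinning, barcode minimums, gate minimums and each library left out. A few of the genes these rules choose are not reported here.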

Additional observations from a re-analysis of the deposited data

Results flagged for a closer look

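2 genes were flagged because their difference between caudate putamen and hippocampus was not the same at 21 and 3 months in a test of that change (region by age, edgeR). For Atxn2l the difference at 21 months minus that at 3 months was -1.21 on the log2 scale: the regional difference was -0.59 at 21 months and 0.62 at 3 months. For Snrpf it was -1.97, from 0.89 at 3 months to -1.08 at 21 months. In both genes the hippocampus libraries of the 2 ages lay close together and the old caudate putamen libraries lay lowest of all 8. In the DESeq2 test 110 genes passed for this comparison, these 2 among them. No library group holds enough samples for a check of single outlying libraries.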

How the results depend on the processing

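For the sums over all nuclei, 8491 calls became 4257 with nuclei thinned to 1000 UMIs and between 5184 and 6985 with 1 library left out. No call of the sums turned direction in any alternative. Of 135 named genes of the sums, 116 kept their call in every refit run, and over all 2153 refits 55 lost a call and 0 reversed. With the replicate number as a replicate block there were 9621 calls in the sums, 2391, 1677, 208 and 460 in the astrocyte, oligodendrocyte, OPC and microglia gates, and 5 for region by age. Under that block 7 of 12 endothelial genes were called higher in hippocampus, and Rab37, Carns1, Clca4a, Dnm3os, Grk3, Lrmda and Ccdc85b lost their calls. The labels do not pair libraries across regions, and same-numbered libraries of the 2 regions deviated together with r = 0.268 across genes. The 2 calls for region by age became 110 with DESeq2, 0 with at least 1000 genes per barcode, 0 with thinned nuclei and 0 to 1 with 1 library left out.

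With 1 library left out the gates gave 1001 to 2379 calls for astrocytes (2488 with all), 1345 to 2050 for oligodendrocytes (2095), 184 to 429 for OPC (215) and 299 to 1186 for microglia (569). Without hippocampus 1, hippocampus 2 and caudate putamen 1 the microglia gate gave 299, 376 and 1186, the astrocyte gate gave 1001 and 1450 without hippocampus 1 and 2, the oligodendrocyte gate 1345 without hippocampus 1, and the OPC gate 429 without caudate putamen 1. With no low-count filter there were 3205 calls in the oligodendrocyte, 381 in the OPC and 1218 in the microglia gate, and DESeq2 gave 79 in the OPC gate. The difference in the share of medium spiny neuron-like nuclei, 40.0 percentage points, fell to 13.6 with nuclei thinned to 1000 UMIs. That of hippocampal excitatory neuron-like nuclei moved from -27.6 to -14.3 with at least 5 markers and to -0.27 with thinned nuclei. Few thinned nuclei entered the excitatory neuron gate: 21 and 20 in the hippocampus libraries and 0 and 0 in the caudate putamen libraries. The difference for interneuron-like nuclei, -0.039, turned to 0.205 with at least 5 markers and to 0.066 with thinned nuclei. With library totals alone the medians of the OPC, microglia, cortical excitatory, AMPA and kainate, serotonin receptor and neuropeptide lists changed sign, all within 0.11 of 0. With thinned nuclei the genes higher in caudate putamen fell from 10 to 6 in the interneuron and from 11 to 7 in the phosphodiesterase list. Those higher in hippocampus fell from 6 to 3 in the phosphodiesterase and neuropeptide lists. They fell from 4 to 1 for serotonin receptors and from 3 to 0 for RGS proteins. Over all genes, calls fell from 8491 of 21970 tested to 4257 of 17065 with this thinning. Those higher in caudate putamen fell from 4342 to 2139, so the falls in the lists are not read as particular to them. The cause of the other changes was not tested. The precision is limited by 2 libraries per region.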
